A study of Mus musculus with 4 samples.

Results

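miR-193b and miR-365 are mature microRNAs (miRNAs) whose hairpin genes lie next to each other on mouse chromosome 16. The pair was taken by name, as every probe for mmu-miR-193b and mmu-miR-365, which makes 2 of the 650 miRNA names on the arrays and 2 of the 159 names that were tested. A name was tested where at least 1 genotype had it well above background on both of its arrays, and both members met that mark on all 4 arrays. The pair was chosen by measured values, namely the higher signal of miR-193b in Lats2 KO cells, so the KO against wild type (WT) values of both members are given as a description, with no test.

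The samples were mouse embryonic fibroblasts (MEFs), connective tissue cells grown from embryos, which received no treatment. The KO group was Lats2-/- C57BL/6J MEFs of clone #112-C, sampled at PDL 70 and PDL 96, and the WT group was C57BL/6J MEFs of clone #112-K from the same litter, sampled at PDL 68 and PDL 90. PDL is read here as the population doubling level, a measure of how long a culture has grown. Total RNA of each sample was labelled with Cy3 and hybridised to 1 single-colour Agilent mouse miRNA array, which gave 4 arrays, and the comparison asked which miRNAs differ in fibroblasts without Lats2, which encodes a Hippo pathway kinase. Each genotype was 1 clone, so a difference between genotypes cannot be told apart from a difference between clones, and the spread between the 2 arrays of a genotype is the spread of 1 clone over PDL. The source label of the KO samples reads LAT2 where the genotype label reads Lats2. The arrays carry no mRNA probes, and the loss of Lats2 was not checked here.

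miR-193b and miR-365 are studied together because a shared primary transcript can give rise to both. In mouse fat tissue the cluster is known for its high level in brown fat and for work on its part in brown fat cell formation. In human tumour cells both miRNAs are known to repress CCND1, which encodes the cell cycle regulator cyclin D1, and miR-193b is also known to repress PLAU, which encodes the protease urokinase.

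The mature sequences below show which miRNAs the arrays could and could not tell apart. They were taken from RefSeq (GRCm38.p6), are written 5′ to 3′, and carry the seed, bases 2 to 8, in capitals. The seed is the stretch that pairs with target mRNAs. miR-193b shares its seed with miR-193, the product of Mir193a on chromosome 11, whereas miR-365 has another seed.
mmu-miR-193b: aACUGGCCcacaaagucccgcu
mmu-miR-193: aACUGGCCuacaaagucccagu
mmu-miR-365: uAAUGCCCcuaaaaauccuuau
Of the 611 mouse names on the array, 499 were matched to a mature sequence, and miR-193 was the 1 other name with the seed of miR-193b. There were 0 other matched names with the seed of miR-365. miR-193 and miR-193b are identical at 19 of 22 bases. Counted from the 5′ end of the miRNA, the substitutions from miR-193 to miR-193b are U9C, A20G and G21C, all of them outside the seed.

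miR-193b comes from the 3′ arm of its hairpin. The hairpin of Mir193b is printed because it places the mature miRNA, in capitals at bases 48 to 69 of 79.
Mir193b: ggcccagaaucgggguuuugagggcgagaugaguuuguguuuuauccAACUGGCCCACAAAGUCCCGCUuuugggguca
The files place the miR-193b probes at chr16:13449669-13449684 and the miR-365 probes at chr16:13453988-13454009 (mm9, listed on the plus strand), with 4303 bases between them. In the gene table of GRCm38.p6, Mir193b and Mir365-1 both lie within the spans of the non-coding genes Gm32817 and Gm53058, and the nearest protein-coding genes are Mrtfb on one side and Parn on the other. No other array name lay within 100 kb of them. The arrangement recurs on chromosome 11, where miR-193 (chr11:79525517-79525532) and miR-365 (chr11:79539969-79539990) are 14436 bases apart, between Rab11fip4 and Utp6.

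The mature miR-365 of chromosomes 11 and 16 is 1 sequence, so its signal is the sum of both genes. The 5p strands of the hairpins differ, and they are shown, 5′ to 3′ from RefSeq (GRCm38.p6), because they are what could separate the genes.
mmu-miR-365-1-5p: agggacuuuugggggcagaugug
mmu-miR-365-2-5p: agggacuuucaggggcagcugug
They are identical at 20 of 23 bases. From miR-365-1-5p to miR-365-2-5p the substitutions are U10C, G11A and A19C, counted from the 5′ end. No array name was matched to either of them or to miR-193b-5p, so the share of miR-365 that came from chromosome 16 was not measured.

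Each member was read by 2 probes with 10 spots per array each. The probes are DNA, complementary to the 3′ part of the miRNA, and are written 5′ to 3′ with the bases that face the 3 substituted positions in capitals.
miR-193b, 17 bases: aGCgggactttgtGggc
miR-193b, 16 bases: aGCgggactttgtGgg
miR-193, 17 bases: aCTgggactttgtAggc
miR-193, 16 bases: aCTgggactttgtAgg
miR-365, 22 bases: ataaggatttttaggggcatta
miR-365, 21 bases: ataaggatttttaggggcatt
The miR-193b probes cover bases 6 to 22 and 7 to 22 of the miRNA and span all 3 positions at which it differs from miR-193. The longer miR-365 probe covers all 22 bases. Binding of miR-193 to the miR-193b probes, or the reverse, was not tested. For both members the longer probe was the brighter, and it gave the values below unless the shorter is named.

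The arrays held 157 and 161 names well above background in KO and 125 and 129 in WT. Over the 159 tested names, which share arrays and are not independent, Pearson's r of log2 signals was 0.994 for the 2 KO arrays and 0.986 for the 2 WT arrays, and it ran from 0.811 to 0.840 where 1 array of each genotype was paired. As a check of the cell type, 6 of 7 fibroblast miRNAs were well above background on all 4 arrays, with a summed scaled signal of 22153 to 23299 in KO and 21315 to 26735 in WT. The exception was miR-145. Of 8 muscle miRNAs, miR-206 alone was above background, and 0 of 6 epithelial, 0 of 6 blood, 0 of 2 endothelial, 0 of 3 neural and 0 of 1 liver miRNAs were.

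miR-193b was higher on both KO arrays than on either WT array. Its scaled signal, the background-subtracted intensity divided by a per-array percentile of detected probes, was 111 at PDL 70 and 119 at PDL 96 in KO, as against 54.7 at PDL 68 and 48.0 at PDL 90 in WT. The group means were 115 ± 5.83 units in KO and 51.4 ± 4.75 units in WT (SD, n = 2 each). The groups did not overlap. The mean difference was 1.17 on the log2 scale (SE 0.10, n = 2 per group), or 2.25-fold, and the 4 pairs of a KO and a WT array ran from 2.03-fold to 2.49-fold. In these bulk samples, more cells that express the miRNA and more miRNA per cell cannot be told apart.

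miR-365, the neighbour on the chromosome, differed far less. In the same order of arrays, its scaled signal was 518 and 512 for KO, then 471 and 408 for WT. The means were 515 ± 4.10 units in KO and 440 ± 44.9 units in WT (SD, n = 2 each). Both KO arrays lay above both WT arrays, but the WT arrays differed from each other by nearly as much as the means did. The mean difference was 0.23 on the log2 scale (SE 0.10, n = 2 per group), or 1.17-fold, with pairs of arrays from 1.09-fold to 1.27-fold. The sign of this difference depended on the scaling: it was -0.17 when arrays were scaled to their median and -0.08 with the total signal per miRNA that the files give.

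**Figure D1:**
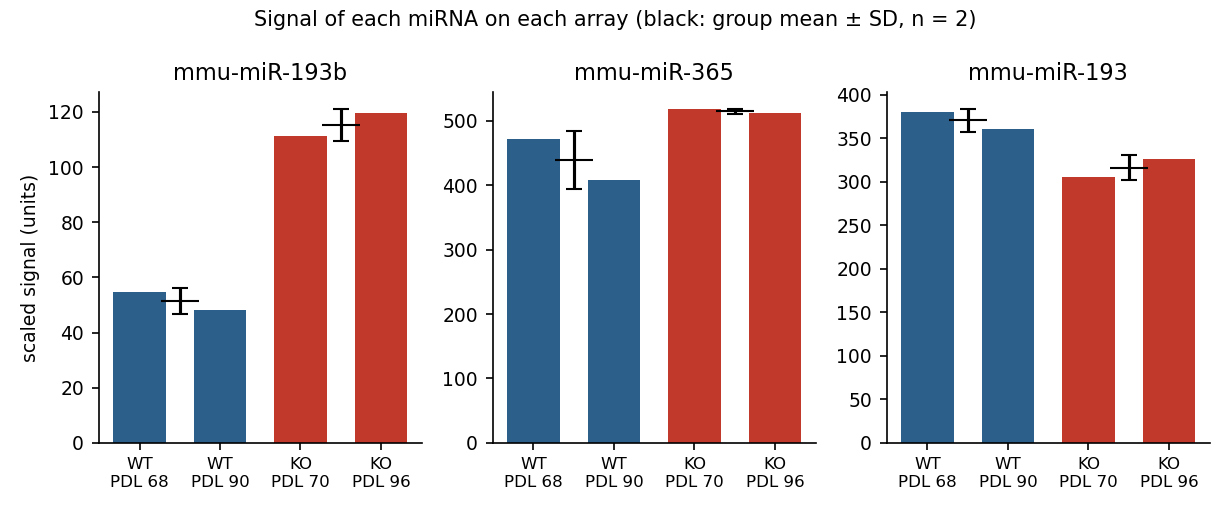
Scaled signal (units) of miR-193b, miR-365 and miR-193 on each array, WT in blue and KO in red, with the group mean ± SD in black (n = 2). The KO bars of miR-193b (111 and 119) stand well above its WT bars (54.7 and 48.0), those of miR-365 (518 and 512) stand slightly above its WT bars (471 and 408), and those of miR-193 (306 and 327) stand below its WT bars (380 and 361).

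Both KO arrays above both WT arrays was a common pattern, found for 60.4% of the tested names, and 43.4% of them were called higher in KO (limma, adjusted p under 0.05), as against 14.5% called lower. The tested names include those detected in 1 genotype alone. In a fit over the 115 names well above background on all 4 arrays, 42 were called higher and 21 lower. Both members had the non-overlapping pattern. Since this contrast chose the pair, nothing is read from that count. The change of miR-193b was exceeded by 44 of the 159 tested names, and by 8 of the 115 that were well above background on all 4 arrays. The change of miR-365 was exceeded by 90 of the 159 and by 51 of the 115. The median change of all tested names was 0.31 on the log2 scale, so miR-193b lay 0.86 above that median and miR-365 lay 0.08 below it. Over the 115 names the median was 0.17, and both members lay above it. Measured against the median of each processing, filters included, miR-193b lay 0.49 to 1.17 above it, a description on the values that chose it. This distance was 0.86 alike as reported, with median scaling and with no scaling, because scaling of whole arrays does not alter it. miR-365 was above the median in 4 of 16 settings, with distances from -0.15 to 0.23, so the side on which it fell depended on the setting. Its distance was likewise -0.08 as reported, with median scaling, with no scaling and with a floor of 5, so the 16 settings are not independent. The distances of 1.17 and 0.23 came with no filter, where the median over all 650 names was 0.

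**Figure D2:**
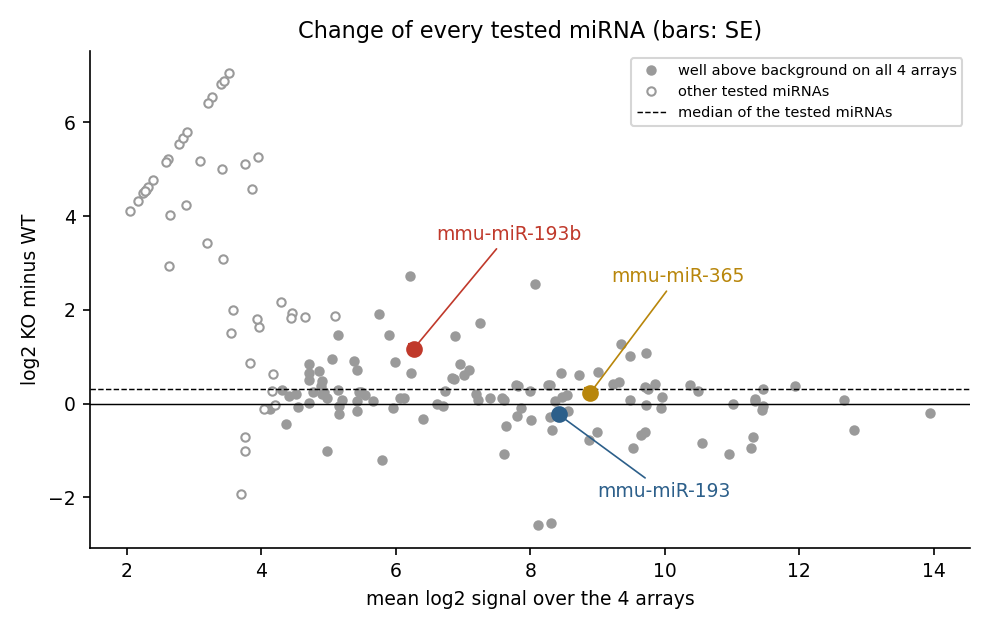
Log2 KO minus WT of each tested miRNA (y axis) against its mean log2 signal over the 4 arrays (x axis), with names well above background on all 4 arrays as filled points and other tested names as open points. miR-193b (1.17) lies above the dashed median of 0.31, miR-365 (0.23) lies just under it and miR-193 (-0.23) lies below 0, and the SE bars of these points are smaller than their symbols.

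The shorter probes gave the same order. For miR-193b the 16-base probe read 51.9 and 57.6 for KO, then 24.0 and 20.2 for WT, a difference of 1.31 on the log2 scale or 2.48-fold. For miR-365 the 21-base probe read 382 and 384 for KO, then 350 and 335 for WT, a difference of 0.16 or 1.12-fold. In this processing both miR-193b probes thus showed a difference of more than 2-fold, and both miR-365 probes one of 1.17-fold or less. The shorter probe of each miRNA lies wholly within the longer, so the 2 are not independent readings.

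The single spots showed how far the arrays separated. On the 17-base probe of miR-193b the 20 KO spots ran from 86.5 to 136 units and the 20 WT spots from 37.8 to 63.7 units. On its 16-base probe the 20 KO spots ran from 46.7 to 62.9 units and the 18 WT spots that carried no outlier flag from 13.5 to 29.0 units. The KO and WT spots of miR-193b did not overlap on either probe. Those of miR-365 did overlap on both: on the 22-base probe, 19 KO spots ran from 458 to 565 units and 19 WT spots from 277 to 502 units. These ranges describe the contrast that chose the pair, and the share of all probes with spots apart was not counted. At the level of arrays, both KO arrays were above both WT arrays for 60.4% of the tested names. Spots of 1 array are technical repeats of 1 hybridisation and were not counted as replicates. Within an array the coefficient of variation over spots was 10.3% to 15.4% for the longer miR-193b probe and 3.17% to 19.6% for the longer miR-365 probe. Its highest value for miR-365 was on the WT array of PDL 90, whose median coefficient of variation over all detected probes was 13.5%, against 7.70% to 9.99% on the other arrays. The part of that array's spot scatter in the WT level of miR-365 was not tested, and without it the miR-365 difference was 0.13 on the log2 scale.

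**Figure D3:**
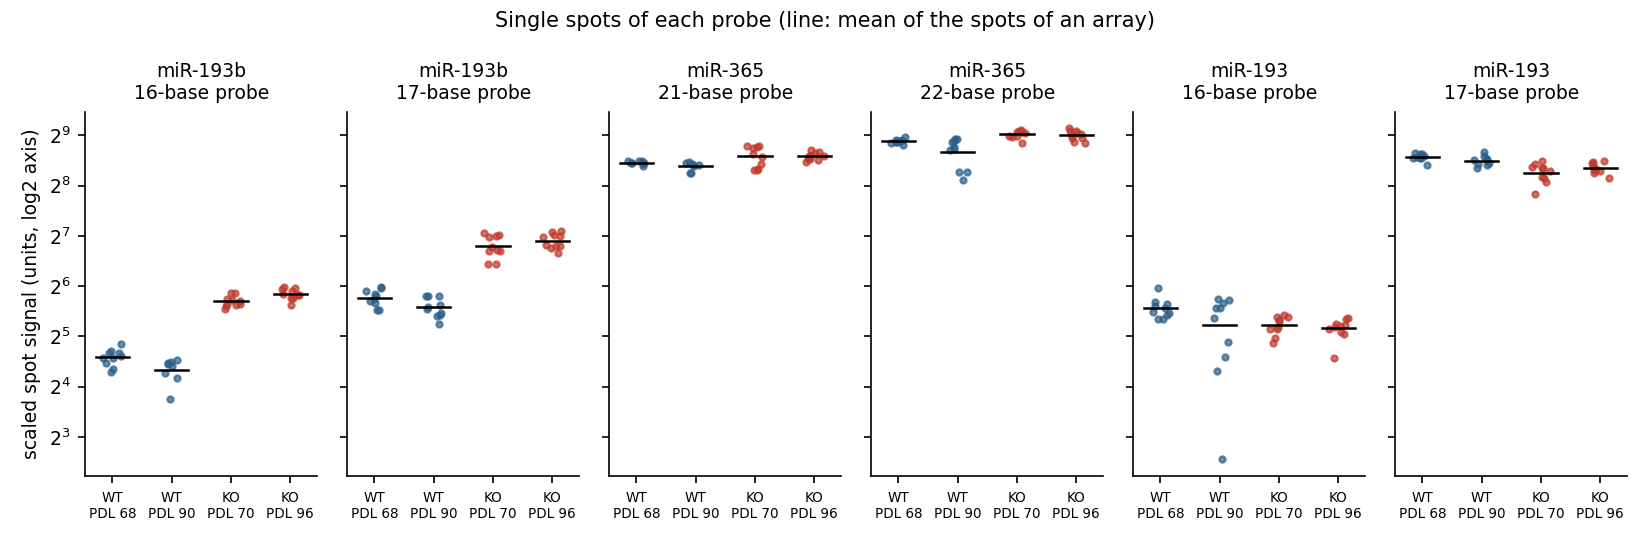
Scaled signal of single spots (units, log2 axis) for each probe of miR-193b, miR-365 and miR-193, by array, WT in blue and KO in red, with a line at the mean of an array's spots. KO and WT spots are apart for both miR-193b probes (86.5 to 136 against 37.8 to 63.7 units for the 17-base probe) and overlap for both miR-365 probes. The contrast shown is the one that chose the pair, and the share of all probes with spots apart was not counted.

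The difference between KO and WT was larger for miR-193b than for miR-365, a description on the values by which miR-193b was chosen. Within an array, the log2 signal of miR-193b minus that of miR-365 was -2.22 and -2.10 in KO and -3.11 and -3.09 in WT. These are differences between probes, so only their change from WT to KO carries meaning. That change was 0.94 on the log2 scale, or 1.92-fold, and 0.87 to 1.01 over the 4 pairs of arrays. No scaling of whole arrays alters it. It was 0.40 with normexp background correction and 0.40 with quantile normalization, which do act on each probe. Normexp was run with an offset of 50 units, near the WT signal of miR-193b (54.7 and 48.0 units) and far under that of miR-365 (471 and 408 units). The part of the offset in the smaller change was not tested.

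The partners on chromosome 11 gave another pattern. miR-193, which carries the seed of miR-193b, read 306 and 327 for KO, then 380 and 361 for WT, so both KO arrays were below both WT arrays. Its difference was -0.23 on the log2 scale (SE 0.07, n = 2 per group), and it did not pass the test over all 159 names (adjusted p = 0.069, limma). It did pass with quantile normalization (-0.30), median scaling (-0.63) and the total signal per miRNA (-0.51), with adjusted p from 0.013 to 0.881 over 15 alternatives. The direction was negative in all of these alternatives, and the smallest difference was -0.02 with no scaling. The change of miR-193b exceeded that of miR-193 by 1.40 on the log2 scale, or 2.64-fold, with 1.34 to 1.46 over the pairs of arrays. That gap is a description, on the values by which miR-193b was chosen. It was smaller with normexp (changes of 0.60 for miR-193b and -0.20 for miR-193) and with quantile normalization (0.69 and -0.30). miR-193*, the other strand of the chromosome 11 hairpin, stayed short of the background mark on each of the 4 arrays. miR-193, which shares the seed of miR-193b, was thus measured at a lower signal in KO on the same arrays, without a call as reported. The change of miR-365, whose mature sequence both chromosomes encode, lay between theirs. How much miR-365 each chromosome gave was not measured, so the order says nothing on the genes of either chromosome.

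PDL gave a comparison that the choice of the pair had not used. With genotype in the model, the higher PDL minus the lower was -0.04 on the log2 scale for miR-193b (SE 0.12, adjusted p = 0.938) and -0.11 for miR-365 (SE 0.09, adjusted p = 0.826, limma over 159 names, 2 arrays per level). Neither passed the test. Over all tested names limma called 0% (0 of 159), and 8 names had an unadjusted p under 0.05. Within KO, miR-193b was 1.07 times its PDL 70 signal at PDL 96, and within WT it was 0.877 times its PDL 68 signal at PDL 90. miR-365 was at 0.989 times in KO and 0.865 times in WT. On the log2 scale these steps were 0.10 in KO and -0.19 in WT for miR-193b, and -0.016 in KO and -0.21 in WT for miR-365.

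For each member the 3 tested names with the most similar pattern were found by the Euclidean distance over the 4 arrays between log2 signals centred on each name's own mean. Since this measure uses the arrays that chose the pair, the values are a description. Nearest to miR-193b were let-7c (distance 0.16, KO minus WT 1.07 on the log2 scale), let-7b (distance 0.24, difference 1.01) and miR-148b (distance 0.27, difference 0.96). The difference of miR-148b became 0.20 with quantile normalization and 0.25 with normexp background correction, whereas that of let-7c stayed between 0.67 and 1.28 and that of let-7b between 0.61 and 1.22 over 15 alternatives. let-7c and let-7b belong to a family whose members differ by few bases and whose probes can share signal. Nearest to miR-365 were miR-28 (distance 0.076, difference 0.27), miR-214 (distance 0.083, difference 0.31) and miR-199a-3p (distance 0.093, difference 0.32). Of these, miR-214 and miR-199a-3p can be made from a shared primary transcript and are typical of fibroblasts. With median scaling the differences of all 3 turned to -0.13, -0.09 and -0.09, and that of miR-28 was also negative with quantile normalization (-0.08) and with the total signal per miRNA (-0.02). The distance between miR-193b and miR-365 was 0.94, so neither was among the 3 names nearest to the other. How this compares with the distances between other tested names was not examined.

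Lists of miRNAs from the same areas of biology were set beside the pair, read against the 43.4% called higher and 14.5% called lower among all tested names. Among the 115 names well above background on all 4 arrays, 42 were called higher and 21 lower. Of 10 miRNAs known to promote brown fat formation, 7 were tested, 3 were higher, 0 were lower and 4 were not called, with a median of 0.29 on the log2 scale against 0.31 for all. The 3 were miR-182 (at least 2.70-fold higher in KO) and miR-196a (at least 3.99-fold higher), neither well above background in WT, and miR-378 (0.91, adjusted p = 0.024), which is encoded within the gene of the coactivator PGC-1β. The 2 bounds set the KO mean against the lowest signal well above background on the WT arrays. Both names entered the test only through their KO arrays, so a call of lower in KO was hardly open to them. Their calls are therefore a description, and no p is given for them. The bounds hold for this processing. With normexp the fitted log2 differences were 0.38 for miR-182 and 0.82 for miR-196a. An offset of 50 units was added there before the log2 step, so these 2 values are not on the scale of the bounds. With the mean of all probes (0.91) and quantile normalization (1.12) the difference of miR-182 was under its bound. That of miR-378 was 0.28 with normexp and 0.17 with quantile normalization. The calls of miR-182, miR-196a and miR-378 were lost without KO replicate 1 (PDL 70) and without KO replicate 2 (PDL 96). The difference of miR-378 was 0.86 and 0.95 in these. Its call was also lost with quantile normalization (adjusted p = 0.396, limma) and with no filter on dim names (adjusted p = 0.188, limma). That of miR-182 was lost with quantile normalization too, and that of miR-196a with no filter.

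Of 8 miRNAs known to restrain brown fat formation, 6 were tested, 2 were higher and 4 were lower, with a median of -0.27. Among the lower, miR-106b and miR-93 had adjusted p of 0.046 and 0.045 (limma), close to the threshold. How the calls of miR-106b and miR-93 depended on the processing was not examined. miR-34a, which was among the higher names, is also counted in the next list, of miRNAs known to target cyclin D1. miR-155, which is known from inflammation, rose by 1.47 on the log2 scale (SE 0.10, adjusted p = 0.0025). miR-27a, which restrains fat cell formation, fell by 1.08 (SE 0.10, adjusted p = 0.0045), and its relative miR-27b fell by 0.57 (SE 0.13, adjusted p = 0.034). Without KO replicate 1 and without KO replicate 2 the adjusted p was 0.061 and 0.059 for miR-155, 0.066 and 0.059 for miR-27a, and 0.170 and 0.109 for miR-27b. The call of miR-27b was also lost without WT replicate 1 (0.076), with no scaling, with the mean of all probes and with no filter, in a range from 0.0058 to 0.220. The log2 difference of miR-155 was 0.46 with normexp, 0.73 with quantile normalization and 2.10 with the mean of all probes, and over 15 alternatives those of miR-27a and miR-27b ran from -1.48 to -0.87 and from -0.97 to -0.36.

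Of 11 other miRNAs known to target cyclin D1, 8 were tested, 4 were higher, 3 were lower and 1 was not called, with a median of 0.24. let-7b, which restrains proliferation, rose by 1.01 (SE 0.07, adjusted p = 0.0027). The let-7 names did not move together. let-7c also rose (1.07), whereas let-7i fell (-0.71). let-7a, let-7d, let-7e, let-7f and let-7g lay from -0.13 to 0.07 and were not called. miR-15a fell by 0.78 (SE 0.07, adjusted p = 0.0053) and miR-16, its cluster partner, fell by 0.68 (SE 0.08, adjusted p = 0.0093). The calls of let-7b and miR-15a held in all 15 alternatives, at log2 differences of 0.61 to 1.22 and -1.18 to -0.57, and the difference of miR-16 ran from -1.08 to -0.47. The call of miR-16 was lost without KO replicate 1 (0.070), without KO replicate 2 (0.059) and with no filter (0.069), in a range from 0.0010 to 0.070. The list thus held names on both sides of 0, and miR-193b and miR-365, which share the target, stood at 1.17 and 0.23.

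The size of the miR-193b difference depended on the processing, and its direction did not in the settings run. It was 0.60 on the log2 scale with normexp background correction and an offset of 50 units, 0.69 with quantile normalization, 0.77 with median scaling and 1.38 with no scaling. It stayed between 1.08 and 1.26 when any 1 of the 4 arrays was left out. For miR-365 the same omissions gave 0.13 to 0.34.

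**Figure D4:**
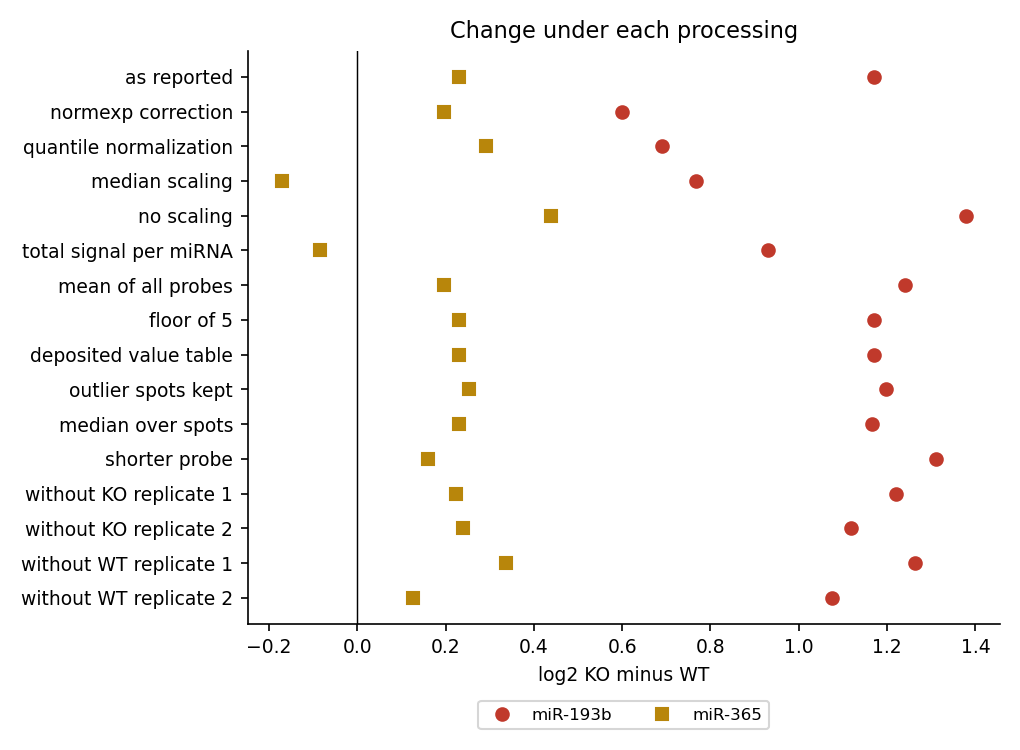
Log2 KO minus WT (x axis) of miR-193b (circles) and miR-365 (squares) under each processing setting and with each array left out (y axis). All circles lie to the right of 0, from 0.60 to 1.38, whereas the squares of miR-365 lie on both sides of 0, from -0.17 to 0.44.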

How the data were processed

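Single-colour Agilent mouse miRNA arrays of 2 Lats2 KO and 2 WT samples were analysed, 1 array per sample, all on 1 slide with 1 scan. Agilent Feature Extraction 10.5.1.1 was the authors' scanner software, per the file headers, and the deposited files hold for each spot a background-subtracted intensity on a linear scale, not normalized between arrays, together with a total signal for each miRNA, raw mean and background intensities and quality flags. The deposited value table holds the same intensity to within 0.495%, with column medians of -0.585, -0.581, -2.01 and 0.595 units (KO replicates 1 and 2, WT replicates 1 and 2), so it is linear and not centred.

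Controls and outlier-flagged spots were dropped, and the others were averaged per probe. Arrays were divided by the 75th percentile (458 to 562 units) of 192 probes that stood well above background on each of the 4 arrays and brought back to units with the mean percentile. A probe met that mark where the flag was set on a share over 0.5 of its remaining spots. The lowest such signals were 12.5 to 15.5 units, and 0 spots were saturated. A floor of 1 unit was applied before the log2 step. The brightest probe stood for a name. Tests used limma 3.58.1 in R 4.3.3 (two-sided, Benjamini-Hochberg over the 159 names, called under 0.05) and were tested on simulated data. Sequences were matched in Python 3.11.15. The number of arrays limits the precision.

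The members, the lists and the tests were chosen with earlier results of these data known. The names given are both members, names of the same family, seed or 100 kb window, the 3 nearest patterns per member, and up to 3 called names with the largest change per list. miR-34a, miR-106b, miR-93 and the let-7 names beside let-7b were added after the calls were seen. Replicate numbers follow the order of the records and pair no samples. Alternatives in background correction, scaling, probe summary, floor, filter, test and arrays were run. The shorter probe, outlier spots kept and the median over spots were chosen after seeing the data.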

Additional observations from a re-analysis of the deposited data

Results flagged for a closer look

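From the lower to the higher PDL, miR-193b moved by 0.10 on the log2 scale in the KO clone and by -0.19 in the WT clone, in opposite directions, with 1 array at each PDL. The difference between the clones was not tested. Opposite directions were found for 87 of the 159 tested names (54.7%), and 35 (22.0%) were up in KO and down in WT.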

How the results depend on the processing

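The labels give no replicate numbers that KO and WT share, so none was used to pair arrays. A fit that matched the lower and the higher PDL of the genotypes as a block gave 70 called names in place of 92. The count was 60 with no filter, 37 to 89 with 1 array left out (39 without KO replicate 1, 37 without KO replicate 2), 39 by the methods' t-test with a 2-fold minimum and 33 when that was adjusted by Benjamini-Hochberg. With 1 array left, a group is assumed to vary like the other. Of the called names 75% were higher in KO (69 and 23), whereas quantile normalization gave 53.8% (50 and 43), median scaling 51.4% (38 and 36), the total signal 60.6% (43 and 28) and no scaling 86.0% (92 and 15). The median change of 0.31 became 0.14, -0.09, 0.04 and 0.52 in these, and 0.11 with normexp.

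The miR-193b difference of 1.17 became 0.60 with normexp, 0.69 with quantile normalization, 0.77 with median scaling, 1.38 with no scaling, 0.93 for the total signal per miRNA and 1.31 for the shorter probe, and 1.08 to 1.26 with 1 array left out. The miR-365 difference of 0.23 became -0.17 with median scaling, 0.44 with no scaling and -0.084 with the total signal, and 0.13 to 0.34 with 1 array left out. The gap of 0.94 between the changes became 0.40 with normexp, 0.40 with quantile normalization, 1.01 with the total signal and 1.04 with the mean of all probes, and 0.879 to 0.998 with 1 array left out. The PDL difference of miR-193b turned from -0.04 to 0.0026 with normexp, 0.063 with quantile normalization, 0.033 with median scaling and 0.0063 for the total signal, at adjusted p of 0.751 to 1 over its alternatives. miR-28 turned to -0.081, -0.13 and -0.019 with quantile normalization, median scaling and the total signal, and miR-199a-3p and miR-214 turned to -0.087 and -0.093 with median scaling. The cause was not tested. The 75th percentile over all probes could not be run, since it was -0.104 units on 1 array.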
